A study of Mus musculus with 16 samples.

Results

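Small nucleolar RNA (snoRNA) host genes are transcripts whose introns carry snoRNAs, and 5 of them were measured in mitral cells, the output neurons of the mouse olfactory bulb. The set listed 8 noncoding host genes (Snhg1, Snhg3, Snhg6, Snhg7, Snhg8, Snhg11, Snhg12 and Gas5), and a probe belonged to a member where its RefSeq accession mapped to that symbol. By this rule 5 of the 8 genes had a probe (Snhg1, Snhg3, Snhg6, Snhg7 and Snhg12), each with 1 probe and 1 spot per array, of 12035 named genes tested in all. Snhg8, Snhg11 and Gas5 were not analysed here. All 5 measured members passed the filter on dim probes, which asked for 4 or more of the 16 arrays with a signal well above background. Snhg12 was chosen because it was low in control cells at postnatal day 6, so its levels are described without a test. The other 4 members were chosen as genes of the same kind and were tested.

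All cells came from ICR mice, and all mice received in utero electroporation at embryonic day 12 (E12). Control cells carried only pCAG-EYFP. Kir2.1 cells carried it together with pCAG-Kir2.1, whose product is an inwardly rectifying potassium channel and makes neurons less excitable. Both groups were sampled at postnatal day 3 (P3) and at postnatal day 6 (P6). Single fluorescent cells were collected manually, and their cDNA was amplified by PCR. Only those with EYFP and Pcdh21 transcripts in a further PCR were used, Pcdh21 being an older name of Cdhr1, a mitral and tufted cell marker. Each of the 16 arrays held the pooled cDNA of 10 cells, with 4 pools in each of the 4 groups. The CAG promoter is active in many cell types, so the identity of the cells rested on the picking and on these PCR tests. The labels call the pools biological replicates and give no number of animals, so p-values measure the spread between pools, part of which may be technical.

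snoRNAs guide the ribose methylation (box C/D class) and the pseudouridylation (box H/ACA class) of ribosomal RNA in the nucleolus. In mammals most of them are released from introns of a host transcript after splicing, and proteins bind them to form snoRNPs. The spliced exons of noncoding hosts often contain short reading frames, and many are known substrates of nonsense-mediated decay. An array probe for a host gene reads the host transcript and not the snoRNAs, so both can differ. Because each array measured a pool, fewer cells with a transcript and less of it per cell cannot be told apart.

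In RefSeq the 5 measured members differ in their snoRNA content. Snhg1, on chromosome 19, spans 8 annotated snoRNA genes, among them Snord22. Snhg3, on chromosome 4, carries Snora73a and Snora73b, which are abundant H/ACA RNAs. Snhg6, on chromosome 1, carries Snord87 and overlaps the gene Mcmdc2, so the source of its signal is less certain. Snhg7, on chromosome 2, carries Snora43 and Snora17. Snhg12, also on chromosome 4, carries Snora16a, Snora44, Snora61 and Snord99, and its start lies 45008 bases from that of Snhg3.

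The promoters of 4 members follow because snoRNA host genes are known for a shared kind of start site, rich in pyrimidines, and because Snhg12 and Snhg3 lie close together. Each line holds 50 bases before and 50 bases from the annotated start in RefSeq on GRCm38.p6, on the strand of the gene and from 5′ to 3′, and capitals mark the letters TATAA on either strand.
Snhg12, chr4:132308628-132308727, plus strand: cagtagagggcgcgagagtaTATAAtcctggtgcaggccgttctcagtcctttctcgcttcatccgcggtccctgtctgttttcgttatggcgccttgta
Snhg1, chr19:8723437-8723536, plus strand: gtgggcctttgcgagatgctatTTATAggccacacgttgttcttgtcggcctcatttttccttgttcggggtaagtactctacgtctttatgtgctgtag
Snhg7, chr2:26640195-26640294, minus strand: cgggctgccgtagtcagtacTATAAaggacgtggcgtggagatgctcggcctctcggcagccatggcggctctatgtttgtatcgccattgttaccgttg
Snhg3, chr4:132353637-132353736, minus strand: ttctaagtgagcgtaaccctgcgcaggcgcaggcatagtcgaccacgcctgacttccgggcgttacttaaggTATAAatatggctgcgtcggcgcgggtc

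In 3 of these 4 promoters the letters TATAA, read on either strand, lay between 40 and 16 bases before the annotated start. They began 30 bases before the start in Snhg12 and Snhg7, and 28 bases before it in Snhg1. In Snhg3 the only match lay after the start, 22 bases beyond its first base. Of 32851 RefSeq promoters, 4.35% held a match in the same 25 bases. The annotated first base was a pyrimidine in the same 3 genes, against 30% of all promoters. Snhg6 is named only. A match describes letters and not a bound factor.

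Levels are given as log2 signal relative to the 75th percentile of the same array, taken over the 12103 probes detected (well above background) on each of the 16. A level of 0 equals that percentile, and 1 unit is a doubling. Levels of different genes come from different probes and are not compared with each other.

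Snhg12 was low in control cells at P6 and not in any other group. In P3 control pools 1 to 4 its levels were 0.14, -1.02, -1.50 and -1.33. In P3 Kir2.1 pools they were -0.37, -0.32, -0.53 and -1.12. In P6 Kir2.1 pools they were -0.62, 0.26, -2.54 and 0.21. These 3 groups overlapped, with means of -0.93 ± 0.74, -0.59 ± 0.37 and -0.67 ± 1.31 (SD, n = 4 each).

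In P6 control pools the levels of Snhg12 were -10.09, -5.41, -4.85 and -9.43, with a mean of -7.45 ± 2.70 (SD, n = 4). The highest P6 control pool lay below the lowest pool of every other group. On the scanner's linear scale the spot read 1.97, 24.5, 47.7 and 1.85 in the P6 control pools and 1042, 2164, 254.6 and 2781 in the P6 Kir2.1 pools. Only pools 2 and 3 of the P6 control group were well above background, so pools 1 and 4 give only an upper bound of the level. The difference of means was 6.78 for Kir2.1 against control at P6 and -6.52 for P6 against P3 in control cells, with the pools below background entered at their own signal. With signals set no lower than each array's lowest signal well above background, these differences were 5.81 and -5.55. With a normexp background correction they were 3.54 and -3.39. The remaining differences of Snhg12 were 0.34 for Kir2.1 against control at P3 and -0.09 for P6 against P3 in Kir2.1 cells. Both large differences share the P6 control pools.

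**Figure D1:**
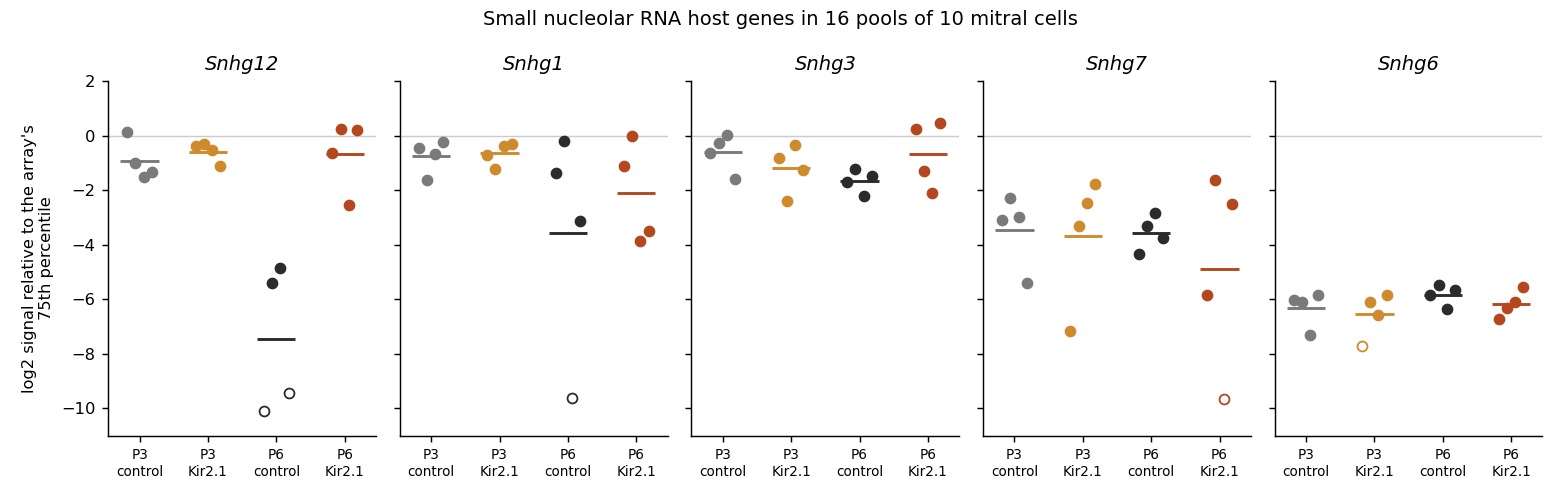
Log2 signal relative to the array's 75th percentile (vertical axis) of 5 host genes in each of 16 pools, grouped by age and treatment. Filled points were well above background, open points were not, and bars are group means. Snhg12 lies between -10.09 and -4.85 in the P6 control pools and at -2.54 or above elsewhere, while each other gene overlaps between the groups.

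Snhg1, the host of the largest number of annotated snoRNAs among the 5, varied between pools mainly at P6. Its levels were -0.47, -1.61, -0.67 and -0.23 in P3 control pools, and -0.71, -1.24, -0.37 and -0.30 in P3 Kir2.1 pools. At P6 they were -1.36, -0.21, -9.61 and -3.14 in control pools, of which pool 3 was not well above background. In P6 Kir2.1 pools they were -1.11, -0.01, -3.85 and -3.48. The groups overlapped in every comparison, and the low P6 control pool was pool 3, where Snhg12 had its highest P6 control level. The difference between P6 and P3 in control cells was -2.84 (SE 1.55, adjusted p = 0.362 by limma), and without pool 3 of the P6 control group it was -0.83. Kir2.1 against control at P6 differed by 1.47 (SE 1.55, adjusted p = 0.665 by limma), and by -0.54 without that pool.

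Snhg3, the closest member to Snhg12 on the chromosome, was well above background on all 16 arrays. Its levels were -0.62, -0.28, 0.03 and -1.60 in P3 control pools, and -0.81, -2.39, -0.34 and -1.26 in P3 Kir2.1 pools. They were -1.71, -1.23, -2.23 and -1.48 in P6 control pools, and 0.24, -1.30, -2.11 and 0.47 in P6 Kir2.1 pools. In the P6 Kir2.1 group, pools 1 and 4 lay above all P6 control pools and pools 2 and 3 lay among them. Kir2.1 against control at P6 differed by 0.99 (SE 0.59, 95% interval -0.29 to 2.26, adjusted p = 0.412 by limma). P6 against P3 in control cells differed by -1.04 (SE 0.59, 95% interval -2.32 to 0.23, adjusted p = 0.384 by limma). The interaction of age and Kir2.1 was 1.57 (SE 0.84), with the lowest p of any member test, 0.084 before and 0.539 after adjustment in limma.

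Snhg7 varied widely within groups. Its levels were -3.10, -2.28, -2.99 and -5.42 in P3 control pools, and -7.17, -3.30, -2.46 and -1.79 in P3 Kir2.1 pools. They were -4.35, -3.31, -2.83 and -3.74 in P6 control pools, and -5.86, -1.61, -9.66 and -2.49 in P6 Kir2.1 pools, where pool 3 was not well above background. The low pools were scattered over 3 groups. Its differences ran from -1.35 (Kir2.1 against control at P6, SE 1.54, adjusted p = 0.695 by limma) to -0.11 (P6 against P3 in control cells).

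Snhg6 was dim, with spot readings of 9.33 to 51.3 on the scanner's linear scale and P3 Kir2.1 pool 1 not well above background. A narrow range this close to background need not mean a steady transcript. Levels of Snhg6 ranged from -7.31 to -5.86 in P3 control pools, from -7.71 to -5.86 in P3 Kir2.1 pools, from -6.35 to -5.49 in P6 control pools and from -6.71 to -5.55 in P6 Kir2.1 pools. Its 95% intervals in limma reached from -1.26 to 0.61 for Kir2.1 against control at P6 and from -0.45 to 1.41 for P6 against P3 in control cells.

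None of the 4 tested members passed an adjusted p of 0.05 in any comparison by limma, and none had an unadjusted p under 0.05, a level that 6.53% to 17.9% of all features reached in the 6 comparisons. Of all 21070 features tested, 0.00949% passed for Kir2.1 against control at P3, 1.76% at P6 and 0.712% for the mean of both ages. For P6 against P3, 2.59% passed in control cells, 0.878% did so in Kir2.1 cells and 0.0902% passed for the interaction of age and Kir2.1. With shares this low, 4 genes without a call do not stand apart from the array as a whole. None of the 4 had groups without overlap, against 6.80% of features for Kir2.1 against control at P3, 8.89% at P6, 12.7% for P6 against P3 in control cells and 10.5% for P6 against P3 in Kir2.1 cells. The median difference of the 4 was 0.33 for Kir2.1 against control at P6, with 2 positive and 2 negative, and -0.58 for P6 against P3 in control cells, with 1 positive and 3 negative. The medians of all features in those comparisons were -0.13 and -0.07. For Snhg1 and Snhg7 the intervals were wide, so a difference of several units remains within them.

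**Figure D2:**
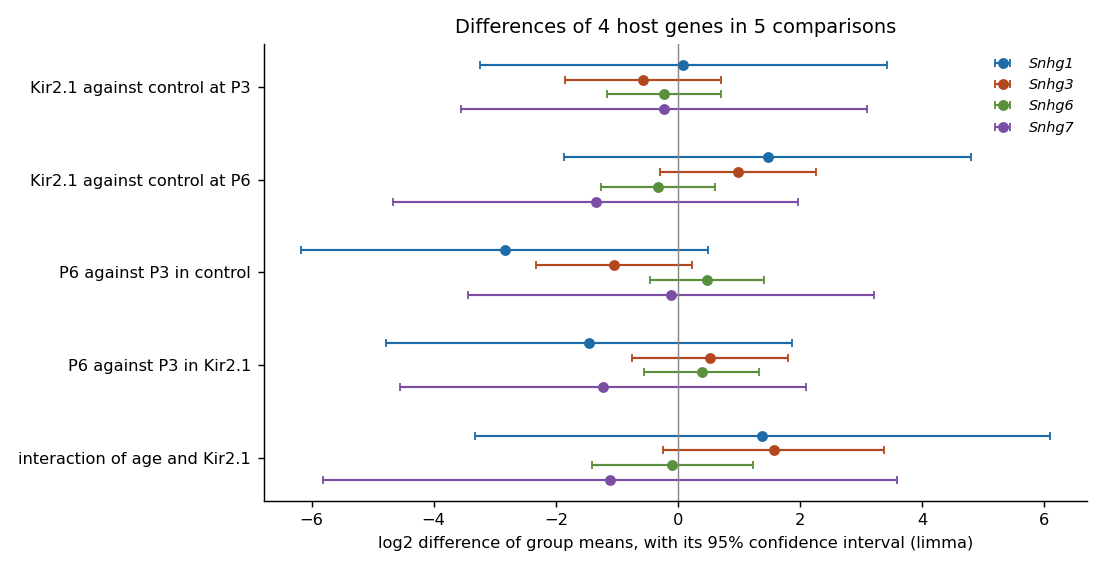
Differences of group means on the log2 scale (horizontal axis) with 95% confidence intervals from limma for 4 host genes in 5 comparisons. Every interval includes 0, and those of Snhg3 and Snhg6 are narrower than those of Snhg1 and Snhg7.

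Across the 16 pools the members did not vary as one. Pearson's r between pairs ran from -0.36 (Snhg6 and Snhg12) to 0.42 (Snhg3 and Snhg12), over pools that share their group structure. The features most like Snhg12 were Pdcd6ip (r = 0.976), an adaptor of endosomal sorting, then Eif2s3x (0.947), a subunit of a translation initiation factor, Gpx1 (0.942), a glutathione peroxidase, 1 unnamed probe (0.928) and Nop10 (0.922), a protein of H/ACA snoRNPs. Their likeness rested largely on the P6 control pools. Over the 12 other pools r was 0.638 for Pdcd6ip, 0.390 for Eif2s3x, 0.537 for Gpx1, 0.167 for the unnamed probe and 0.347 for Nop10. The named features most like the mean of the other 4 members were Tm2d2 (r = 0.907), Polr3e (0.853), Slc4a1ap (0.840) and Atp5j (0.835).

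Detection in the P6 control pools, which the choice of Snhg12 used, is given over all features as a description. Of 11802 features well above background in the 12 pools outside the P6 control group, 143 (1.21%) were well above background in exactly 2 P6 control pools, as Snhg12 was. Another 49 were so in 1 pool and 10 in none. In 18 of the 143 the missing pools were 1 and 4, the pair missing for Snhg12. Pool 1 of the P6 control group had the highest share of probes well above background of any array, 41.0%. For the P6 Kir2.1 group the corresponding share of features detected in exactly 2 pools was 0.473%, and for the P3 groups it was 0.267% in control and 0.691% in Kir2.1 cells.

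**Figure D3:**
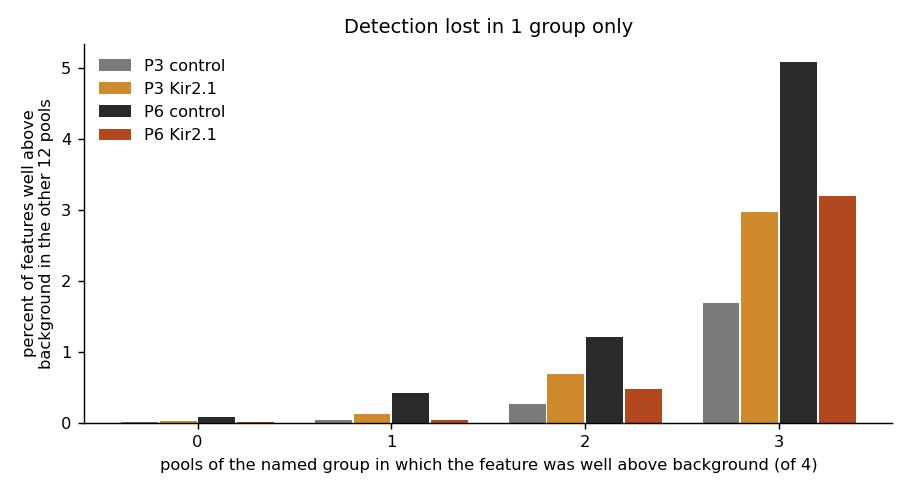
Percent of features (vertical axis) that were well above background in all 12 pools outside a group but in only 0, 1, 2 or 3 of the 4 pools of that group (horizontal axis), for each of the 4 groups. The P6 control bars are the highest in each class, at 1.21% for 2 pools and 5.08% for 3 pools.

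The genes beside the members gave a view of their surroundings. Snhg12 lies between Rab42, a small GTPase gene, and Trnau1ap, which binds the selenocysteine tRNA. Rab42 was well above background in 6 of 16 pools, and its P6 levels ranged from -9.65 to -2.83 in control and from -10.15 to -2.77 in Kir2.1 pools. Trnau1ap was detected in all pools, from -3.34 to -0.15 in P6 control pools and from -4.45 to -1.08 in P6 Kir2.1 pools, which overlapped. The P6 Kir2.1 mean of Trnau1ap was therefore the lower one, by 1.43 (log2 difference -1.43, SE 0.85, adjusted p = 0.404 by limma), opposite in sign to Snhg12.

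Wdr74, a ribosome biogenesis factor and the neighbour of Snhg1, had the largest difference among the neighbours. Its levels were -10.23, -5.22, -4.69 and -8.37 in P6 control pools, with pools 1 and 4 not well above background, and -3.60, -0.81, -4.48 and -2.66 in P6 Kir2.1 pools. The groups did not overlap at P6, and the difference of 4.24 (SE 1.19) had an adjusted p of 0.0855 in limma and ranged from 1.74 to 4.45 over 11 other settings. At P3 its difference was 2.35 (SE 1.19, adjusted p = 0.804 by limma), also without overlap. Sgk3, a kinase gene beside Snhg6, differed by -1.11 between P6 and P3 in control cells (SE 0.43, adjusted p = 0.194 by limma). Slc3a2, Rcc1, Phactr4 and Dipk1b, the other tested neighbours, had no adjusted p under 0.05 either.

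**Figure D4:**
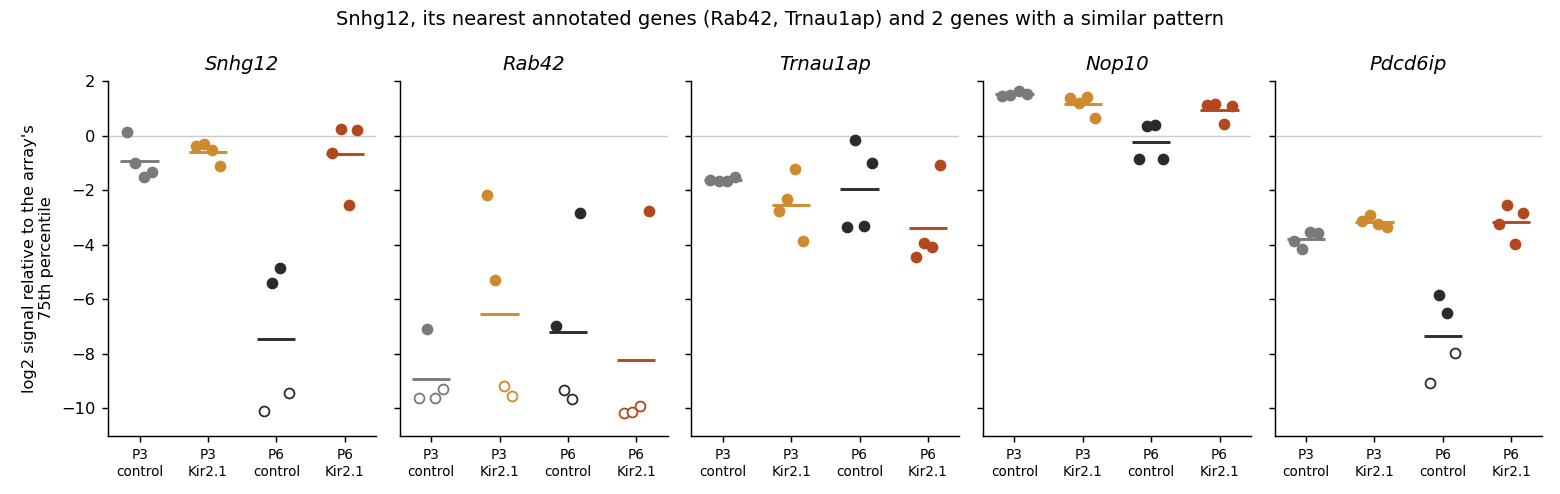
Log2 signal relative to the array's 75th percentile (vertical axis) in each pool for Snhg12, its neighbours Rab42 and Trnau1ap, and Nop10 and Pdcd6ip, which had a similar pattern over pools. Open points were not well above background and bars are group means. Nop10 is lowest in the P6 control group, at -0.84 to 0.38, and Trnau1ap overlaps between all groups.

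Other noncoding host genes were drawn from a list of 16, of which 6 had a probe and were tested. Their snoRNA content was not looked up here, and Meg3 and Mirg, of an imprinted region, may not be snoRNA hosts themselves. None of the 6 passed an adjusted p of 0.05 in any comparison by limma, while 1 had an unadjusted p under 0.05 for Kir2.1 against control at P6 and 2 for P6 against P3 in control cells. Over all features, 17.5% and 17.9% had such a p in those comparisons. Meg3, an imprinted noncoding transcript of a region rich in snoRNAs and miRNAs, was at 4.03, 3.98, 3.94 and 4.13 in P6 control pools and at 2.76, 3.04, 3.57 and 2.62 in P6 Kir2.1 pools. The groups did not overlap, and the difference of -1.02 (SE 0.25) had an adjusted p of 0.0577 in limma, so Meg3 was lower in Kir2.1 cells where Snhg12 was higher. Under 4 of 11 other settings it passed, with adjusted p down to 0.0150, and its range over all 11 reached 0.281. P6 against P3 in control cells differed by 0.62 for Meg3 (SE 0.25, adjusted p = 0.211 by limma), again without overlap. Of its other 2 probes, 1 gave 1.84 in that comparison with an adjusted p of 0.0400 in a limma fit of single probes. The last probe gave 2.00 there (adjusted p = 0.196 by limma). For Kir2.1 against control at P6 these 2 probes gave -1.38 (adjusted p = 0.112 by limma) and -1.19 (adjusted p = 0.456 by limma), so neither passed.

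Dancr, a noncoding host that bears H/ACA RNAs, was at -3.79, -1.97, -1.49 and -6.16 in P6 control pools and at -0.58, -3.87, -0.48 and -1.25 in P6 Kir2.1 pools. The groups overlapped, and the difference was 1.81 (SE 0.95, adjusted p = 0.344 by limma), or 0.87 to 2.58 with 1 pool left out. Snhg16 showed a similar scatter, with 2 of 4 P6 control pools not well above background, and differed by 1.67 at P6 (SE 1.57, adjusted p = 0.621 by limma). That difference of Snhg16 ranged from 0.16 to 1.92 over 11 other settings and from 0.60 to 2.82 with 1 pool left out. Snhg17 was dim, with 8 of 16 pools well above background, and its P6 control pools lay below the P3 control pools without overlap by -0.90 (SE 0.34, adjusted p = 0.180 by limma). Snhg10 differed by -1.34 in the same comparison (SE 1.11, adjusted p = 0.576 by limma), and Mirg, better known as a miRNA host in the region of Meg3, by -0.90 for Kir2.1 against control at P6 (SE 0.51, adjusted p = 0.383 by limma).

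Protein-coding snoRNA hosts are mostly genes of ribosomal proteins and translation factors, and all 30 on the list were tested. For Kir2.1 against control at P6, 24 had a positive difference and 6 a negative one, with a median of 0.21 against -0.13 over all features. None passed an adjusted p of 0.05 in limma, and 5 had an unadjusted p under 0.05, which is 5 of 30 against 17.5% of all features. Rpl3, a protein of the large ribosomal subunit, differed by 0.82 without overlap (SE 0.22, adjusted p = 0.0675 by limma), Cct6a, a chaperonin subunit, by 1.39 (adjusted p = 0.183 by limma) and Hspa8, a constitutive chaperone, by -0.42 (adjusted p = 0.257 by limma). Rpl3 passed in 3 of 11 other settings, with adjusted p down to 0.0115 and up to 0.310 in limma, and Hspa8 in 1, with adjusted p from 0.0474 to 0.671. At P3 the split was also 24 to 6, with a median of 0.25 against -0.03, and 4 had an unadjusted p under 0.05, against 6.53% of all features, led by Rpl5 at 0.70 (SE 0.21, adjusted p = 0.537 by limma). Under 3 other scalings and the normexp correction the number of positive differences ranged from 20 to 26 at P6 and from 20 to 25 at P3.

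For P6 against P3 in control cells, 6 of the 30 protein-coding hosts had a positive difference and 24 a negative one, with a median of -0.35 against -0.07 over all features. There was 1 call among the 30, against 2.59% of all features. It was Eif4a1, the RNA helicase of translation initiation, which fell by 0.95 on the log2 scale (SE 0.23, adjusted p = 0.0448 by limma) from 3.18 ± 0.13 to 2.23 ± 0.21 (SD, n = 4 each). That call was lost in 6 of 11 other settings and in 14 of 16 fits that left out 1 pool, with adjusted p up to 0.115. Positive differences numbered 4 to 10 of the 30 under the same alternatives. In Kir2.1 cells 7 were positive and 23 negative, none passed in limma and 9 had an unadjusted p under 0.05, against 15.0% of all features, and those alternatives gave 5 to 13 positive.

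snoRNP core proteins bind the released snoRNAs, and all 8 were tested. In control cells Nop10 alone of the 8 passed between P6 and P3, against 2.59% of all features. Its levels were 1.46, 1.50, 1.65 and 1.52 in P3 control pools and -0.84, 0.34, 0.38 and -0.84 in P6 control pools. It fell by 1.77 on the log2 scale (SE 0.32, adjusted p = 0.0126 by limma), and the call held with each of the 16 pools left out but not in a fit of the 8 control arrays alone (adjusted p = 0.0806). In P6 Kir2.1 pools Nop10 was at 1.11, 1.17, 0.43 and 1.08, above every P6 control pool, a difference of 1.19 (SE 0.32, adjusted p = 0.0782 by limma). It passed there in 2 of 11 other settings, with adjusted p from 0.0442 to 0.319 in limma. None of the 8 passed for Kir2.1 against control at P6, while 5 had an unadjusted p under 0.05, against 17.5% of all features, among them Gar1 at 1.77 (SE 0.68, adjusted p = 0.200 by limma) and Dkc1 at 2.33 (SE 1.03, adjusted p = 0.261 by limma), both of the H/ACA class. Dkc1 was well above background in 2 of 4 P6 control pools and ranged from 0.49 to 2.55 over 11 other settings, and Gar1 ranged from 0.92 to 2.17 with 1 pool left out. Of the 8, 6 were positive at P6 with a median of 0.34, and 2 were positive for P6 against P3 in control cells with a median of -0.88.

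Among 12 tested factors of snoRNP assembly and transport, none passed in any comparison by limma. For Kir2.1 against control at P6, 1 of the 12 had an unadjusted p under 0.05, against 17.5% of all features. This was the H/ACA assembly factor Shq1, which was well above background in 3 of 4 P6 Kir2.1 pools and in no P6 control pool, so no size is given. Its adjusted p was 0.0879 in limma, and 0.0552 to 0.950 over 10 other settings. Of 19 tested genes of ribosome biogenesis and RNA polymerase I, 1 passed for P6 against P3 in control cells, against 2.59% of all features. This was Npm1, a nucleolar chaperone. It fell by 1.26 on the log2 scale (SE 0.30, adjusted p = 0.0450 by limma) from 0.67 ± 0.18 to -0.59 ± 0.70 (SD, n = 4 each). The Npm1 call was lost in 3 of 11 other settings, with adjusted p up to 0.167 by limma in a fit of the 8 control arrays alone. It was also lost in 14 of 16 fits that left out 1 pool, with adjusted p up to 0.125. Ebna1bp2, a large-subunit assembly factor, differed by 3.84 for Kir2.1 against control at P6 (adjusted p = 0.0856 by limma). It passed in 1 of 11 other settings, the normexp correction, at 1.90 (adjusted p = 0.0375 by limma).

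Nonsense-mediated decay was represented by 14 factors, of which 13 were tested. For Kir2.1 against control at P6, 3 of the 13 had an unadjusted p under 0.05 in limma, against 17.5% of all features. Of the 13, 1 passed, against 1.76% of all features. This was Upf2, which links the central helicase of the pathway to the exon junction complex. Its levels were -5.83, -6.26, -9.55 and -5.93 in P6 control pools, with pool 3 not well above background, and -4.32, -3.62, -0.45 and -2.44 in P6 Kir2.1 pools. The groups did not overlap, and Upf2 was higher by 4.18 in Kir2.1 cells (SE 0.95, adjusted p = 0.0448 by limma). The call was lost in 4 of 11 other settings, with adjusted p up to 0.243 by limma in a fit of the 8 P6 arrays alone. It was also lost in 13 of 16 fits that left out 1 pool, with adjusted p up to 0.0866 among those fits. Under normexp the difference was 1.93. P6 against P3 in control cells differed by -2.90 for Upf2 (SE 0.95, adjusted p = 0.128 by limma). The other 12 tested factors did not pass in either comparison.

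**Figure D5:**
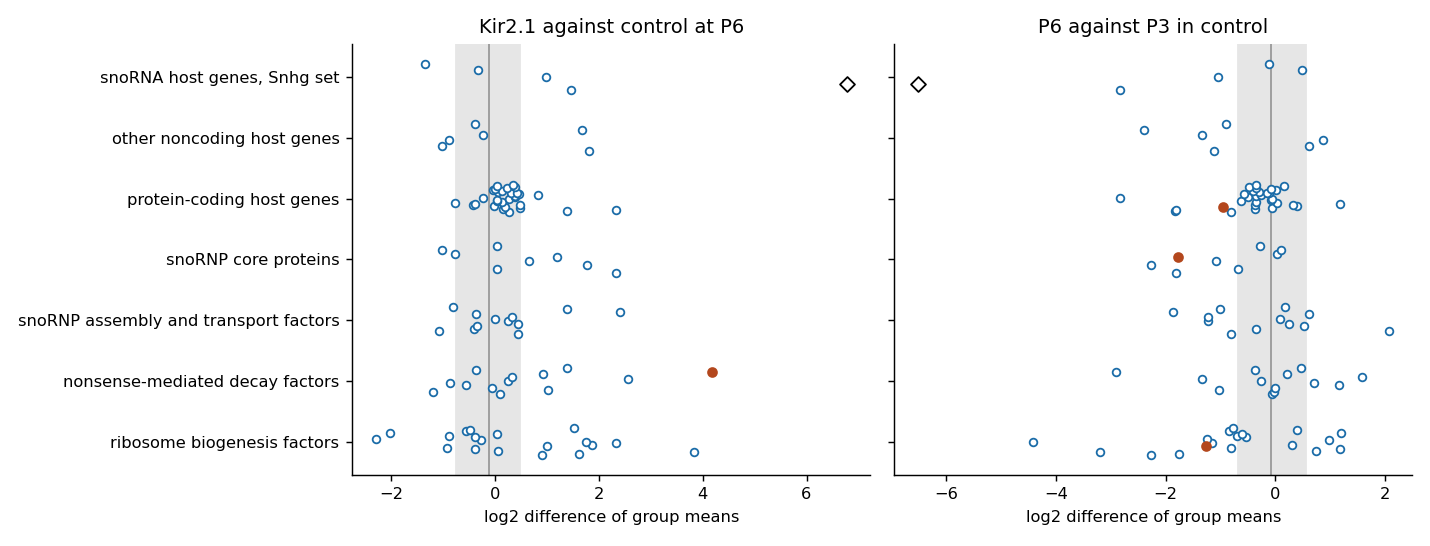
Differences of group means on the log2 scale (horizontal axes) for Kir2.1 against control at P6 and for P6 against P3 in control cells, 1 point per gene in each list. The grey band and line are the quartiles and median of all 21070 features, filled points passed an adjusted p of 0.05 in limma, and the diamond is Snhg12, which was not tested. Snhg12 lies at 6.78 and -6.52, outside the range of the lists shown, and both comparisons share the P6 control pools.

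Summed interneuron markers were higher in the P6 control pools than in the other groups. Sums for glial, vascular and olfactory sensory cells overlapped between the P6 groups, while those for mitral and tufted cells did not. Mean log2 levels of the mitral and tufted cell markers did overlap there. The part of these cell types in the results above was not tested. The 12 tested of 15 olfactory bulb interneuron markers summed to 4.41 to 10.2 times the array's 75th percentile in P6 control pools, against 1.28 to 3.41 in P6 Kir2.1 pools, 1.95 to 2.46 in P3 control pools and 1.75 to 2.89 in P3 Kir2.1 pools. Between P6 and P3 in control cells 11 of the 12 had a positive difference and 3 passed in limma, against 2.59% of all features. By limma these were Meis2 at 4.32 (adjusted p = 0.00313), Gad2 at 6.87 (adjusted p = 0.0158) and Gad1 at 6.23 (adjusted p = 0.0454). Gad1 and Gad2 were each well above background in 1 of 4 P3 control pools, so their sizes depend on signals near background. For Kir2.1 against control at P6, 11 of the 12 were negative and 1 passed, against 1.76% of all features. This was Penk, lower in Kir2.1 cells (adjusted p = 0.0269 by limma). Penk was well above background in 3 P6 control pools, 1 P3 control pool and no Kir2.1 pool. It thus met the filter on dim probes mainly through the group where it was high, and no size is given. With 1 pool left out, Gad1 no longer passed in 12 of 16 fits, Penk in 6 (adjusted p up to 0.0612) and Gad2 in 1 (0.0574). Over 11 other settings Gad1 ranged from 2.93 to 6.37 and lost its call in 5, and Gad2 ranged from 3.45 to 7.01 and lost its call in 1. In a fit of the 8 P6 arrays alone Penk did not pass (adjusted p = 0.187 by limma). Calb2 and Dlx6 were well above background in no P6 control pool. Astrocyte and radial glia markers, 7 of 9 tested, summed to 11.7 to 14.2 in P6 control pools and 3.93 to 15.4 in those with Kir2.1, and microglia markers, 5 of 9 tested, to 0.419 to 1.93 and 0.191 to 0.590. Olfactory sensory neuron and ensheathing cell markers, 9 of 9 tested, summed to 10.73 to 14.5 in P6 control pools and 3.34 to 30.0 in P6 Kir2.1 pools. Vascular and blood cell markers, 6 of 9 tested, summed to 0.848 to 1.37 and 0.576 to 3.94, and oligodendrocyte lineage markers, 8 of 8 tested, to 1.53 to 5.83 and 1.07 to 5.93. In P6 Kir2.1 pools 1 and 2 the vascular and blood cell sum was 3.94 and 3.89, above every other pool. In P3 control pools the astrocyte and radial glia sum was 1.74 to 4.35, below every P6 control pool. The same held for the olfactory sensory neuron and ensheathing cell sum, 1.86 to 8.91. Microglia, vascular and oligodendrocyte sums overlapped between the control groups. Between P6 and P3 in control cells 7 of 7 astrocyte markers and 6 of 9 sensory and ensheathing markers were positive. In each list 1 passed in limma, against 2.59% of all features. Both lists hold Fabp7, so these calls need not be of separate genes.

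The labelled cell type was checked against its own markers. The level of Cdhr1 in P3 pools was 3.31 ± 0.33 for control and 2.75 ± 0.43 for Kir2.1 cells, and in P6 pools 3.08 ± 0.33 and 3.75 ± 0.25 (SD, n = 4 each). Mitral and tufted cell markers, 11 of 12 tested, summed to 9.52 to 16.2 in P6 control pools and 17.3 to 26.9 in P6 Kir2.1 pools, without overlap. A sum on the linear scale rests mostly on the brightest genes. The mean log2 level of the same 11 markers did overlap, at -2.34 to -1.50 in P6 control pools and -1.73 to -0.24 in P6 Kir2.1 pools. For Kir2.1 against control at P6, 8 of the 11 had a positive difference and 3 a negative one. Of the 11, 1 passed in limma as higher, against 1.76% of all features called. An unadjusted p under 0.05 was reached by 6 of them, against 17.5% of all features. Lhx5 was well above background in no pool, Slc6a7 in none at P3, and Reln in 1 of 4 P6 control pools. All P3 arrays lay on slide 1 and all P6 arrays on slide 2, so the effects of age and of slide cannot be told apart, and control pools lay in row 1 and Kir2.1 pools in row 2 of a slide, so treatment and row cannot be told apart either.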

How the data were processed

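Each 1-colour (Cy3) Agilent array gave spot intensity on a linear scale, background-subtracted by Agilent Feature Extraction 10.7.3.1 per the file headers. The deposited value table held the same intensity divided by the array's 75th percentile, a scale found by setting it against the scanner tables, and served as an alternative. Control spots and outlier spots were left out. From each log2 signal the array's 75th percentile was subtracted, taken over 12103 probes well above background on all 16 arrays. Probes well above background on at least 4 arrays were kept, and a gene was read from its brightest probe on average (12035 genes and 9035 unnamed probes). Between 34.3% and 41.0% of probes were well above background per array, and the number of arrays limits precision. Limma 3.58.1 (R 4.3.3) fitted all arrays together, two-sided, with Benjamini-Hochberg adjustment over 21070 features and a threshold of 0.05. The procedure was tested on simulated data. Symbols and snoRNA positions came from RefSeq (GRCm38.p6), motif searches from its promoters (pandas in Python).

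The members and lists were chosen with earlier results of these data known. Named genes were all members, list genes past the threshold or else up to 3 with the lowest p, nearest neighbours, and the 5 features most like Snhg12 or the mean of the other members. Same-numbered pools did not deviate together (r of deviations -0.028 to 0.031, none of 24 pairs over 0.1), so numbers were not treated as pairs. The normexp alternative used median in place of mean spot signals.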

Additional observations from a re-analysis of the deposited data

Results flagged for a closer look

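In 44 groups of 4 pools (11 noncoding genes listed as hosts in 4 groups each), 4 had a pool far from the other pools, where chance gives about 5% of groups. The gap divided by the range was 0.844 for Snhg6 in P3 control pools (1 pool at -7.31), 0.865 for Snhg10 in P6 Kir2.1 pools (1 pool at -7.68, not well above background), 0.865 for Snhg16 in P3 control pools (1 pool at -6.03) and 0.894 for Snhg16 in P3 Kir2.1 pools (1 pool at -6.34), each above Dixon's critical value for 4 values. None of the P6 control groups was among them, including that of Snhg12. The ratio looks for 1 pool far from the rest and cannot flag pools split evenly into low and high ones. The P6 control pools of Snhg12 were split in this way, at -10.09 and -9.43 against -5.41 and -4.85 (ratio 0.126). Those of Snhg16 were split likewise (ratio 0.135). For both genes the absence of a flag therefore does not show that the P6 control pools agreed.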

How the results depend on the processing

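The count of tested members past the threshold was 0 in every comparison under all alternatives run, which were 3 other scalings, normexp, 2 other filters, a floor, a fit of 8 arrays, another variance prior, single probes, the replicate number as a block and each pool left out. Slide as a block was not run because it is aliased with age. Snhg12 kept its directions for Kir2.1 against control at P6 and for P6 against P3 in control cells. Under normexp these were 3.54 and -3.39, and with 1 pool left out they ranged from 5.89 to 7.64 and from -7.38 to -5.64. Also under normexp, Snhg6 turned to -0.11 for P6 against P3 in Kir2.1 cells. Directions that turned when 1 pool was left out had ranges of -2.88 to 0.40 (Rab42, Kir2.1 at P6), -0.20 to 0.28 (Snhg1, Kir2.1 at P3), -0.54 to 2.59 (Snhg1, Kir2.1 at P6), -0.56 to 0.15 (Snhg6, Kir2.1 at P3), -0.89 to 0.93 (Snhg7, Kir2.1 at P3), -2.45 to 0.24 (Snhg7, Kir2.1 at P6), -2.39 to 0.36 (Snhg7, P6 against P3 in Kir2.1) and -0.77 to 0.28 (Snhg7, P6 against P3 in control). No cause was tested. The replicate block left the Snhg12 differences at 6.78 and -6.52, and in the blocked fit Eif4a1 (adjusted p = 0.0817), Npm1 (0.0797), Upf2 (0.0761) and Gad1 (0.0639) no longer passed in limma. Counts over all features were 370 for Kir2.1 at P6 (20 to 718 over the settings, 182 with the block), 545 for P6 against P3 in control (181 to 884, 326 with the block), 185 in Kir2.1 (24 to 260), 150 for the mean (75 to 343), 19 for the interaction (9 to 99) and 2 for Kir2.1 at P3 (0 to 18). The fit of 8 arrays gave 20 and 181 for the first 2, 24 for P6 against P3 in Kir2.1 and 18 for Kir2.1 at P3. Such a fit has fewer arrays to estimate the spread, and why the counts moved was not tested.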
